A study of Mus musculus with 15 samples.

Results

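Cultured mouse spermatogonial stem cells that had been deprived of glial cell line-derived neurotrophic factor (GDNF) and its soluble co-receptor GFRalpha1 for 18 h were compared with cultures given both factors back for 4 h. The comparison was defined by the sample titles alone and took 6 of the 15 arrays of the study, 3 titled 18-hr withdrawal and 3 titled 4-hr replacement. The germ cell cultures came from 6 day old C57BL/6 males and, per the labels, were highly enriched for stem cells and had been kept in serum-free medium with GDNF, GFRalpha1 and basic fibroblast growth factor. The withdrawal group was sampled after 18 h without GDNF and GFRalpha1, and the replacement groups were sampled 2, 4 or 8 h after both were restored to cultures treated in the same way. A maintained group had not been deprived, and each of the 5 groups had 3 arrays. No group was left without the factors beyond 18 h and none is described as having its medium changed without them, so an effect of the factors and one of handling or of further hours in culture cannot be told apart. The labels do not say whether replicates were separate cultures, so the p-values below measure the spread between arrays, which may be technical.

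GDNF, made by Sertoli cells in the testis, is the main niche signal for self-renewal of spermatogonial stem cells. It binds GFRalpha1, and the complex activates the RET receptor tyrosine kinase, which feeds the RAS-ERK, PI3K-AKT and SRC family kinase pathways. ERK signalling is known for a fast wave of immediate-early transcription factors, followed by its own inhibitors (dual-specificity phosphatases, Sprouty proteins) and ETS factors of the PEA3 group. AKT is known to hold FOXO transcription factors out of the nucleus. In these germ cells the transcription factors ETV5, BCL6B, LHX1 and ID4 are linked to stem cell maintenance.

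RNA was measured on 1-colour Affymetrix arrays, and all 15 had been scaled to nearly the same trimmed mean, 150.0 to 150.3. Values below are that signal, on a linear scale, and differences are on log2(signal + 16), which understates the change of dim genes. Arrays correlated with each other at Pearson r of 0.936 to 0.974 across probe sets. Germ cell transcripts were present throughout, with Ddx4 at 830.5 to 1410 and Dazl at 4112 to 7637 over the 6 arrays, and so were Gfra1 (720.0 to 1157) and Zbtb16 (1736 to 3140). Of the Sertoli cell markers, Amh and Cldn11 lay below the brightness limit of 30.5 by their mean over all arrays, while Sox9 (38.3 to 55.0 over the 6 arrays) and Wt1 (16.8 to 45.8) passed it at low signal, and 14 genes of the Sertoli list passed it in all. The ratio of 3' to 5' beta-actin signal, which rises when RNA or its labelling is incomplete, was 2.77 on withdrawal replicate 3 against 1.21 and 1.22 on the other withdrawal arrays, and 1.12, 1.52 and 1.75 on the 4 h arrays. Because bulk RNA was measured, fewer cells of a type and less RNA per cell cannot be told apart.

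Of 13083 genes tested, 346 (2.64%) differed between 4 h of replacement and withdrawal at an adjusted p under 0.05. They comprised 227 genes (1.74%) that were higher and 119 (0.91%) that were lower after replacement, and on all of these 346 genes the 3 and 3 arrays did not overlap, as was the case for 2798 genes (21.4%) in all. Changes of at least 2-fold were mostly increases, 61 against 11. Shifting all arrays to 1 median gave 373 genes, of which 334 were higher and 39 lower, so the split between directions depended on the scaling. The number of calls also rested on single arrays: leaving out 4 h replicate 2 gave 56, leaving out 4 h replicate 3 gave 86 and leaving out 4 h replicate 1 gave 620. Leaving out withdrawal replicate 1 or 2 gave 159 and 156. Leaving out withdrawal replicate 3, the array with the raised beta-actin ratio, gave 361 genes, and 202 of these were among the 346. Fitting these 6 arrays alone gave 13 genes, and 10 of the 91 called genes named here kept their call in it: the lists described below then had 3 immediate-early genes, 1 feedback gene and no cholesterol, fibroblast or FOXO gene called. The fit over all 15 arrays, used throughout, takes its estimate of spread from all groups, and allowing each array its own weight gave 1609.

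**Figure D1:**
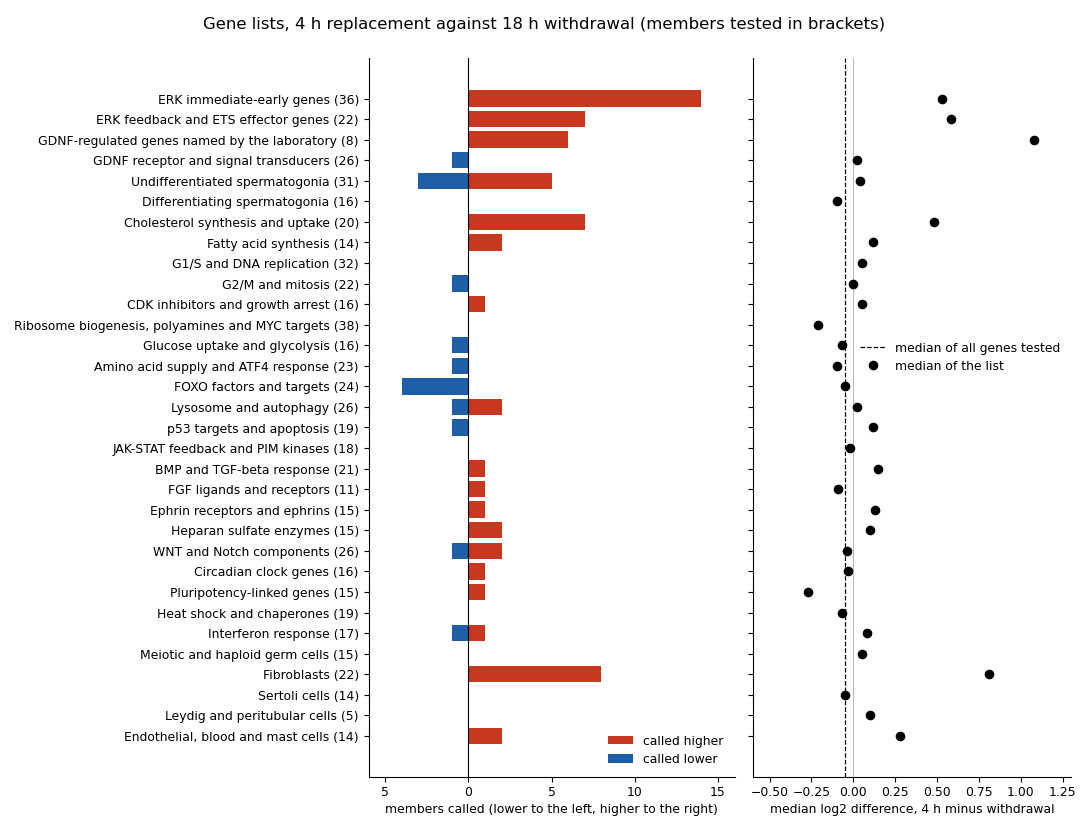
Number of members called higher (right, red) or lower (left, blue) after 4 h of replacement for each gene list, with the number of members tested in brackets, and the median log2 difference of each list beside the median of all genes tested (dashed line, -0.05). The ERK immediate-early list has 14 members called higher and none lower, and the fibroblast, ERK feedback and cholesterol lists follow with 8, 7 and 7.

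Among the gene lists examined, immediate-early genes held the most increases. Of 36 measured genes of this ERK-driven class, 14 rose and none fell, 38.9% against the 1.74% of all genes that rose, and the median of the 36 was 0.53 beside -0.05 for all genes. Among them were the zinc-finger factors Egr1 and Egr2, the AP-1 subunits Fos and Junb, the kinase Plk3 and Myc. The remaining 22 did not pass the test. Leaving out 4 h replicate 2 or 3 gave 10 and 11, and leaving out any other array gave between 12 and 15.

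Egr2, a zinc-finger transcription factor best known from hindbrain and Schwann cells, had the largest log2 difference of all genes tested. Its signal was 245, 171 and 158 on the 3 withdrawal arrays and 695, 1126 and 959.9 on the 4 h arrays. The lowest 4 h array was thus well above the highest withdrawal array. The 4 h level was 4.53-fold higher (log2 difference 2.18, SE 0.19, adjusted p = 1.4e-05), and it lay near the maintained level of 1007 ± 116 (SD, n = 3). A second probe set for Egr2 gave 145.6 and 258.9 as group means, a log2 difference of 0.69 in the same direction with an adjusted p of 0.38 over probe sets.

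Egr1, the family member with the highest signal, read 1389, 1212 and 1743 after withdrawal and 3733, 3577 and 3589 at 4 h. The 4 h arrays agreed closely and were 2.52-fold higher (log2 difference 1.33, SE 0.14, adjusted p = 0.000217). Its mean was highest at 2 h, 4818 ± 477 against 3633 ± 86.9 at 4 h (SD, n = 3 each), although 4 h against 2 h did not pass the test (adjusted p = 0.188). Egr3 gave a split result. Its brighter probe set read 88.3, 150.2 and 71.4 after withdrawal and 124, 66.1 and 163 at 4 h, overlapping and not called (log2 difference 0.15, adjusted p = 0.813). The other probe set read 27.4, 29.4 and 9.7 after withdrawal and 264, 322 and 261 at 4 h, a log2 difference of 3.01 with an adjusted p of 1.08e-05 over probe sets, larger than that of Egr2. Which of these probe sets follows the Egr3 transcript was not tested.

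Plk3, a polo-like kinase of the stress and growth factor response, was very dim after withdrawal, at 7.3, 8.9 and 6.2, and read 89.8, 81.3 and 78.1 at 4 h. On the log2(signal + 16) scale this was 4.22-fold higher (log2 difference 2.08, SE 0.24, adjusted p = 0.000431), and the log2 difference was 3.32 with a constant of 1 and 1.04 with a constant of 64. Fos read 405, 389.7 and 260.2 after withdrawal against 624, 805 and 1103 at 4 h and was 2.32-fold higher (log2 difference 1.21, SE 0.20, adjusted p = 0.00618). Its AP-1 partner Junb read 90.8, 125 and 120.0 after withdrawal against 216, 194 and 228 at 4 h and was 1.8-fold higher (log2 difference 0.85, SE 0.13, adjusted p = 0.0044). The arrays of both genes separated completely between the groups. Trib1, a pseudokinase that directs proteins to degradation, read 5.7, 12.6 and 18.2 after withdrawal against 75.6, 50 and 51.3 at 4 h, and was 2.68-fold higher (log2 difference 1.42, SE 0.27, adjusted p = 0.013), or 2.29 and 0.69 on the log2 scale with constants of 1 and 64. Myc, the growth-promoting transcription factor, rose from a very low signal of 15.4, 16.9 and 14 to 54.4, 39.9 and 52.2 (log2 difference 1.04, adjusted p = 0.0213), or 1.59 and 0.50 on the log2 scale with constants of 1 and 64. Its call was lost without withdrawal replicate 1 or without 4 h replicate 2 or 3 (adjusted p = 0.0521, 0.0501 and 0.0768).

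The other called members of the class changed less than 2-fold. They were Ier2, Ier3, Klf10, Nr4a1, Zfp36, Zfp36l2 and Hbegf, with log2 differences from 0.80 (Ier2) to 0.90 (Klf10). Nr4a1 is an orphan nuclear receptor, Zfp36 and Zfp36l2 bind AU-rich messenger RNAs and speed their decay, and Hbegf is a ligand of the EGF receptor. Nr4a1 read 242, 214 and 221 after withdrawal and 425, 380.0 and 438 at 4 h. Zfp36 read 301, 337 and 243 after withdrawal against 694, 513 and 445 at 4 h. A second probe set of Zfp36l2 differed from the first (log2 difference -0.18, adjusted p = 0.856 over probe sets). Classical members that were measured and not called include Jun (log2 difference 0.13), Fosb (-0.06), Atf3 (0.31), Klf2 (-0.60) and Btg2 (-0.30).

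**Figure D2:**
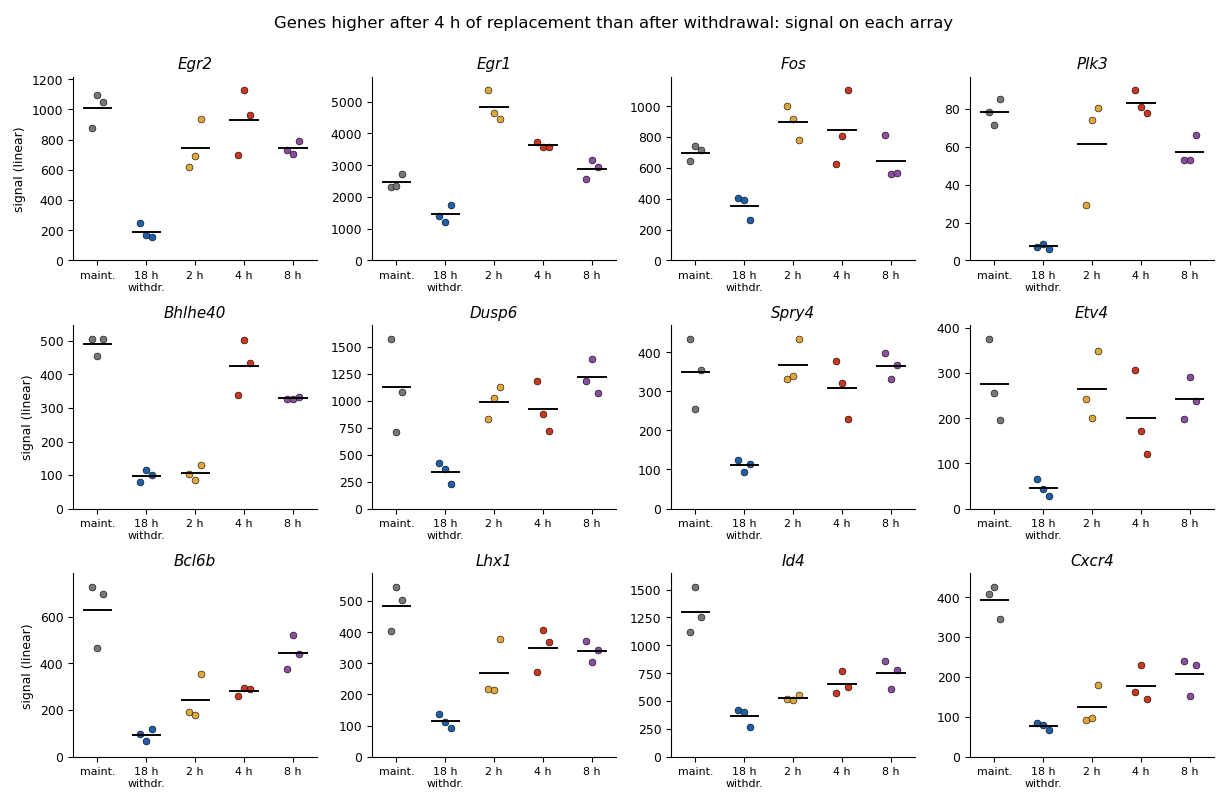
Signal of 12 genes on each array (points) with group means (horizontal lines), linear axes from 0, in maintained cultures, after 18 h withdrawal and after 2, 4 and 8 h of replacement. In every panel the 3 arrays at 4 h lie above the 3 withdrawal arrays, and for Bhlhe40, unlike the other 11 genes, the 2 h arrays overlap those of withdrawal (means 104.9 and 97.4).

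Immediate-early promoters are known for the CArG box, the site of serum response factor, and promoter windows from RefSeq (GRCm38.p6, 250 bases before to 50 after each start site) were searched for it on both strands. It lay in 8 of 221 windows of genes that rose (3.62%), in 1 of 125 windows of genes that fell (0.8%) and in 167 of 13478 windows of all genes tested (1.24%). Of the 7 called immediate-early genes with a window, Egr2 and Zfp36 had a match, and 4 of the 8 matching windows were those of Egr2, which overlap in part. The overlapping Egr2 windows held the same CCATATATGG box, so the share of windows counts that box more than once. Windows were available for 175 of the 227 genes that rose and 96 of the 119 that fell. By gene, the box was found for 5 of those 175, for 1 of those 96 and for 157 of the 10570 genes tested with a window. The 150 bases before the start are shown for 2 Egr2 start sites, for Zfp36 and for Hes5, the gene with a match among those that fell, with the CArG box in capitals.
Egr2, chr10:67537416-67537565, plus strand: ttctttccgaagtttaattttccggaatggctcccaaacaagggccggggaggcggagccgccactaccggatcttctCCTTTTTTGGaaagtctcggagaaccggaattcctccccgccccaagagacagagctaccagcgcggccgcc
Egr2, chr10:67537719-67537868, plus strand: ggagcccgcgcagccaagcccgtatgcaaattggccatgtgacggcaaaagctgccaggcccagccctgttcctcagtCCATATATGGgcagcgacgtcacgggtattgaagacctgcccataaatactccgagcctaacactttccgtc
Zfp36, chr7:28379229-28379378, minus strand: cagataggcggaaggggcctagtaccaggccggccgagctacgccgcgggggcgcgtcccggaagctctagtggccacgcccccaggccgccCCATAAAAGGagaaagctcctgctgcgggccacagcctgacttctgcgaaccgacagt
Hes5, chr4:154960773-154960922, plus strand: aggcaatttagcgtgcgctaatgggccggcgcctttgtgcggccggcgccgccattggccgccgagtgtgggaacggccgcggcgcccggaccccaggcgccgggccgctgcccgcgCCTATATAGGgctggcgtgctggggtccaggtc
Counted from the start site, the boxes began at -72 in both Egr2 windows, at -58 in Zfp36 and at -33 in Hes5. Hes5 alone carried the box among the genes that fell. Whether serum response factor binds any of these matches was not tested. Other motifs were searched in the same way. The cyclic AMP element TGACGTCA was in 1.36% of windows of genes that rose, 1.6% of those of genes that fell and 2.8% of all. The ETS site CCGGAAGT was in 4.07%, 8.0% and 7.22% in the same order, and its longer form ACCGGAAGT, which contains it, in 1.36%, 5.6% and 2.02%. The E-box CACGTG was in 8.14%, 12% and 9.64%, and the forkhead site GTAAACA in 4.07%, 3.2% and 2.68%. These shares are descriptions and were not tested.

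Feedback inhibitors of ERK and the PEA3 ETS factors rose together with the immediate-early genes. Of 22 measured members, 7 rose (31.8% against 1.74% of all genes) and none fell, with a list median of 0.58 beside -0.05 for all genes. The 7 were Dusp6, Dusp7, Spry1, Spry4, Etv4, Etv5 and Phlda1. Leaving out 4 h replicate 2 gave 4, leaving out 4 h replicate 1 gave 10, and leaving out any other array gave 5 to 7.

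Dusp6, the cytoplasmic phosphatase of ERK, read 419.6, 364 and 229 after withdrawal and 1178, 877 and 719.8 at 4 h. It was 2.68-fold higher (log2 difference 1.42, SE 0.26, adjusted p = 0.00921). Spry4, an inhibitor of receptor tyrosine kinase signalling, read 126, 93.6 and 113 after withdrawal against 378, 321 and 229 at 4 h and was 2.53-fold higher (log2 difference 1.34, SE 0.20, adjusted p = 0.00315). All 3 other probe sets of Spry4 pointed the same way, and 1 of them was called. Etv4 had a wide spread, 65.9, 43.7 and 26.9 after withdrawal and 306, 172 and 121 at 4 h, with no overlap, and was 3.41-fold higher (log2 difference 1.77, SE 0.30, adjusted p = 0.007). Its relative Etv5, required for stem cell maintenance in the testis, read 434, 332 and 297 after withdrawal against 896, 831 and 624 at 4 h and was 2.16-fold higher (log2 difference 1.11, SE 0.22, adjusted p = 0.0172). The call of Etv5 was lost without 4 h replicate 2 (adjusted p = 0.0855). Its other probe sets differed by 1.09 and 1.47 without being called (adjusted p = 0.211 and 0.118 over probe sets). The other Etv4 probe set differed by 0.38 (adjusted p = 0.335). Among members not called, Spry2 (log2 difference 0.84), Spred2 (0.75), Spred3 (0.73) and Spred1 (0.67) had differences as large as some called genes, while Dusp1 (0.02) and Errfi1 (-0.06) were near 0.

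Genes of stem cell maintenance moved in both directions. Of 31 measured genes known from undifferentiated spermatogonia, 5 rose (Id4, Bcl6b, Etv5, Lhx1 and Etv4) and 3 fell (Sox3, Neurog3 and Tspan33), 25.8% called against 2.64% of all genes, with a list median of 0.04. In the short list of 8 genes that the laboratory of this study is known for as GDNF targets, 6 rose: Egr2, Lhx1, Bcl6b, Etv5, Cxcr4 and Pou3f1. That list was chosen by that laboratory on such cultures, which may include these arrays, and is no independent evidence of direction. It shares Bcl6b, Etv5 and Lhx1 with the list of 31, and Etv4 and Etv5 were also counted among the feedback genes. All lists were chosen with earlier results of these data known, so the shares are descriptions and not independent of each other. Leaving out 4 h replicate 2 gave 4 of the 8, and leaving out any other array gave 5 or 6.

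Bcl6b, a transcriptional repressor needed for stem cell self-renewal in culture, read 96.4, 66 and 116 after withdrawal and 259, 296 and 288 at 4 h. Replacement arrays were tight and 2.78-fold higher (log2 difference 1.47, SE 0.23, adjusted p = 0.00452). They had not reached the maintained level of 629.7 ± 143, from which 4 h differed by -1.10 on the log2 scale (adjusted p = 0.032). Lhx1, a LIM-homeodomain factor, read 138, 113 and 91.2 after withdrawal against 272, 407 and 367 at 4 h and was 2.8-fold higher (log2 difference 1.49, SE 0.21, adjusted p = 0.00254). Id4, whose product marks the most primitive spermatogonia, read 422, 399.8 and 263 after withdrawal against 575, 765 and 621 at 4 h. Every 4 h array exceeded every withdrawal array, and Id4 was 1.8-fold higher (log2 difference 0.84, SE 0.18, adjusted p = 0.0229), although still below the maintained level of 1301 ± 207 (log2 difference -0.97, adjusted p = 0.0138). The call of Id4 was lost without 4 h replicate 2 or 3 (adjusted p = 0.123 and 0.0663). Its other probe sets differed by 0.31 and 0.86 (adjusted p = 0.444 and 0.109 over probe sets). The other Lhx1 probe set differed by 0.78 (adjusted p = 0.142).

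Cxcr4, the receptor of the niche chemokine CXCL12, read 85.1, 80.2 and 65.9 after withdrawal and 162, 229 and 144 at 4 h, and was 2.06-fold higher (log2 difference 1.04, SE 0.23, adjusted p = 0.0255). It too remained under the maintained level of 393 ± 42.4. Its call was lost without withdrawal replicate 2 or 3 or without 4 h replicate 2 (adjusted p = 0.0548, 0.0527 and 0.134). Pou3f1, a POU-domain factor, read 183, 177 and 126 after withdrawal against 283, 335 and 396 at 4 h and was 1.99-fold higher (log2 difference 0.99, SE 0.16, adjusted p = 0.00497), while a second probe set differed by -0.08 (adjusted p = 0.892 over probe sets). Tspan8, the eighth gene of the short list, differed little on the probe set that stood for it (log2 difference -0.12, adjusted p = 0.683). Its other probe sets differed by 0.82 and -0.27 (adjusted p = 0.0939 and 0.68 over probe sets). The first of these read 32.4, 28.1 and 22.4 after withdrawal against 45.2, 74.8 and 65.2 at 4 h.

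The 3 members that fell are known from progenitors or from the undifferentiated pool. Neurog3, a transcription factor of progenitor spermatogonia, read 252, 283 and 280.0 after withdrawal and 176, 82.7 and 169 at 4 h, and was 1.89-fold lower (log2 difference -0.92, SE 0.23, adjusted p = 0.0403). Sox3 read 1156, 1438 and 1241 after withdrawal against 1055, 489 and 646 at 4 h, with 1 array of the 4 h group close to the withdrawal range, and was 1.81-fold lower (log2 difference -0.86, SE 0.22, adjusted p = 0.0462). Tspan33, a tetraspanin, read 236, 242 and 493 after withdrawal against 120.1, 150.2 and 155 at 4 h and was 2.04-fold lower (log2 difference -1.03, SE 0.21, adjusted p = 0.0202). None of these 3 was called without 4 h replicate 2, nor without 4 h replicate 3, and 1 of the 3 was called without each of the withdrawal arrays. Markers of differentiation did not pass the test: 0 of 16 were called, beside 2.64% of all genes, which says little for a list of this size. Among them were Kit (log2 difference 0.26, adjusted p = 0.351), Stra8 (log2 difference 0.37, adjusted p = 0.419) and Sohlh1 (log2 difference -0.52, adjusted p = 0.196).

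For the receptor complex and its transducers the share of calls was near that of all genes. Of 26 measured, 1 (3.85% against 2.64%) was called. On 9 of the 26 the arrays of the groups did not overlap, beside 21.4% of all genes tested. The called gene was the adaptor Gab1, which was 1.46-fold lower (log2 difference -0.54, SE 0.13, adjusted p = 0.0384), and its call was kept without withdrawal replicate 1 and lost without each of the other 5 arrays. Gfra1 read 881, 720.0 and 830.2 after withdrawal and 761, 1157 and 941 at 4 h, overlapping (log2 difference 0.21, adjusted p = 0.572). Ret was variable within both groups, at 826, 723 and 321 after withdrawal against 757, 369 and 278 at 4 h (log2 difference -0.42, adjusted p = 0.51), and its other probe set gave a difference of 0.69 in the opposite direction (adjusted p = 0.0987 over probe sets).

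Several genes of cholesterol synthesis rose. All 20 measured members had a positive log2 difference, with a median of 0.48, and 7 of them (35.0%) were called, against 1.74% of all genes called higher. The called genes were Msmo1, Idi1, Cyp51, Lss, Nsdhl and Sc5d, enzymes between isopentenyl diphosphate and cholesterol, and Stard4, a sterol transfer protein. The number called was 1 without 4 h replicate 2 and 3 or 4 without each other array. None was called when the 6 arrays were fitted alone.

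Msmo1, the methylsterol monooxygenase, read 1025, 1003 and 728 after withdrawal and 2009, 2288 and 1744 at 4 h, the largest change of the pathway, and was 2.18-fold higher (log2 difference 1.13, SE 0.16, adjusted p = 0.00301). A second, dim Msmo1 probe set differed by -0.04. Idi1, isopentenyl diphosphate isomerase, read 2133, 1916 and 1749 after withdrawal against 3038, 3810.2 and 3203 at 4 h and was 1.73-fold higher (log2 difference 0.79, SE 0.15, adjusted p = 0.0161). Both genes separated completely by array. Sqle (log2 difference 0.61), Insig1 (0.57), Fdft1 (0.48) and Hmgcs1 (0.47) were higher by value without passing the test, and Srebf2, the master regulator of the pathway, differed by 0.01. The sterol element TCACCCCAC was in 0.905% of promoter windows of genes that rose, 0% of those of genes that fell and 0.601% of all. None of the 6 windows of the called cholesterol members had it, which says nothing for so few windows and so rare a match. Among 14 genes of fatty acid synthesis, 2 rose (14.3% against 1.74% of all genes), the desaturases Scd1 (log2 difference 0.74, adjusted p = 0.0319) and Scd2 (log2 difference 0.62, adjusted p = 0.0235). Neither was called without 4 h replicate 2 or without 4 h replicate 3. Scd1 also lost its call without withdrawal replicate 3 (adjusted p = 0.0615), and Scd2 without withdrawal replicate 1 or 2 (adjusted p = 0.0668 and 0.0619). A second Scd1 probe set differed by 0.53 (adjusted p = 0.192 over probe sets). The other Scd2 probe sets differed by 0.74 and 0.05 (adjusted p = 0.474 and 0.964 over probe sets).

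**Figure D3:**
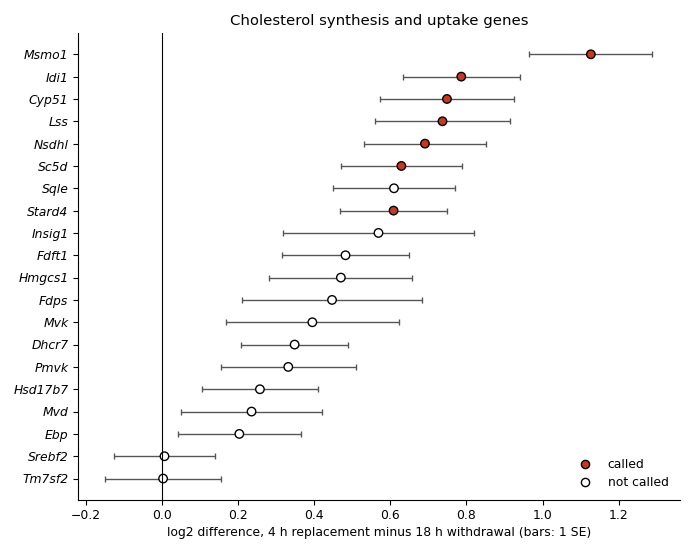
Log2 difference between 4 h replacement and 18 h withdrawal for the 20 measured genes of cholesterol synthesis and uptake, with 1 standard error on each side, from 3 arrays a group. Filled points are the 7 called genes, and the values run from 0.0028 (Tm7sf2) to 1.13 (Msmo1).

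Other genes with large increases belonged to varied systems. Bhlhe40, a transcriptional repressor of the circadian clock that also responds to growth factors, read 78.1, 115 and 99.1 after withdrawal and 337, 502 and 435 at 4 h. It was 3.87-fold higher (log2 difference 1.95, SE 0.17, adjusted p = 1.4e-05) and was the only one of 16 clock genes to be called (6.25% against 2.64% of all genes). Epha2, an ephrin receptor, read 114, 26.5 and 49.9 after withdrawal against 259, 245 and 173 at 4 h and was 3.34-fold higher (log2 difference 1.74, SE 0.31, adjusted p = 0.00921), the only call among 15 ephrins and receptors (6.67% against 2.64%). Its call was lost without 4 h replicate 2 (adjusted p = 0.0501). Hs3st3b1, which adds 3-O-sulfate groups to heparan sulfate, read 95, 92.5 and 26.9 after withdrawal against 169, 389 and 189.7 at 4 h and was 3.1-fold higher (log2 difference 1.63, SE 0.33, adjusted p = 0.019). Its call was also lost without 4 h replicate 2 (adjusted p = 0.104), and its other probe sets differed by 0.25 and 0.10 (adjusted p = 0.54 and 0.874 over probe sets). The protein kinase gene Nim1k was dim in both groups, at 8.2, 19.8 and 2.2 after withdrawal against 63, 69 and 51.9 at 4 h, with no overlap (log2 difference 1.62, adjusted p = 0.00438), and the log2 difference was 2.87 and 0.76 with constants of 1 and 64. Plagl1, an imprinted zinc-finger gene, read 1146, 1021 and 369 after withdrawal against 2126, 2095 and 2138 at 4 h and was 2.76-fold higher (log2 difference 1.46, SE 0.30, adjusted p = 0.0201). The low withdrawal array of Plagl1 is the replicate with the raised beta-actin ratio. Its call was lost without 4 h replicate 2 or 3 (adjusted p = 0.0826 and 0.0688). Its other probe sets, much dimmer, differed by 1.12 and 0.0024 (adjusted p = 0.339 and 0.998 over probe sets).

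Ligands, receptors and surface proteins from the other lists were also called higher. Fgf9, a fibroblast growth factor of the testis, read 94.3, 67.1 and 84.8 after withdrawal and 132, 277 and 222 at 4 h and was 2.23-fold higher (log2 difference 1.16, SE 0.22, adjusted p = 0.013). Jag1, a Notch ligand, read 351, 399.7 and 249 after withdrawal against 523, 921 and 812 at 4 h and was 2.18-fold higher (log2 difference 1.12, SE 0.25, adjusted p = 0.0275), though a dimmer probe set differed by -0.23 (adjusted p = 0.564 over probe sets). The WNT receptor gene Fzd1 was even within each group, at 138, 130.0 and 133 after withdrawal against 255, 222 and 262 at 4 h, and was 1.75-fold higher (log2 difference 0.81, SE 0.14, adjusted p = 0.00618). B2m, the light chain of class I histocompatibility molecules, read 1827, 1998 and 1387 after withdrawal against 3818, 4723 and 3929 at 4 h and was 2.4-fold higher (log2 difference 1.26, SE 0.24, adjusted p = 0.013), and its second probe set was called in the same direction. Neither Fgf9 nor Jag1 was called without 4 h replicate 2 or without 4 h replicate 3, and B2m was not called without 4 h replicate 2. Jag1 also lost its call without withdrawal replicate 1 or 3 (adjusted p = 0.0559 and 0.0653). Second probe sets of Fgf9 and Fzd1 differed by 0.38 and 0.53 without being called (adjusted p = 0.359 and 0.37 over probe sets).

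Among the decreases, Bik and Cd274 kept their calls without any 1 of the 6 arrays. Bik, the gene of a BH3-only protein that promotes cell death, read 166, 158 and 262 after withdrawal and 60.3, 71.3 and 55.2 at 4 h. It was 2.65-fold lower (log2 difference -1.40, SE 0.23, adjusted p = 0.00487), and both of its other probe sets were called in the same direction. It was the only one of 19 genes of the p53 and cell death list to be called (5.26% against 2.64% of all genes). Cd274, the gene of the immune checkpoint ligand PD-L1, read 240.5, 309 and 223 after withdrawal against 102, 84.9 and 142 at 4 h and was 2.2-fold lower (log2 difference -1.14, SE 0.19, adjusted p = 0.00618). The largest decrease among genes with a full name was Grip2, at 119.5, 106 and 148 after withdrawal against 21.7, 13.8 and 90.7 at 4 h, where 1 array of the 4 h group stood far above the others. Grip2 was 2.83-fold lower (log2 difference -1.50, SE 0.35, adjusted p = 0.0352), and its call held without 4 h replicate 3 and was lost without each of the other 5 arrays. Hes5, a target gene of Notch, read 132, 89.8 and 141 after withdrawal against 57.2, 52 and 38.4 at 4 h and was 2.09-fold lower (log2 difference -1.06, SE 0.27, adjusted p = 0.0465), and its call was kept only when 4 h replicate 1 was left out.

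The other genes among the 15 largest decreases were of unrelated kinds. Slc6a3, the dopamine transporter gene, read 55, 66 and 38.6 after withdrawal and 18.8, 16.8 and 23.1 at 4 h. Rbfox3, a splicing regulator of neurons, read 119, 114 and 88 after withdrawal against 52.8, 55.4 and 14.4 at 4 h. Bscl2, the seipin gene of lipid droplet formation, read 183, 204 and 337 after withdrawal against 80, 116 and 128 at 4 h. The arrays of the groups separated in all 3, with log2 differences of -0.94, -1.20 and -1.03 and adjusted p-values of 0.0453, 0.0411 and 0.0293. Iqca, Agxt, Ubxn11, Gnaz, Gcnt2, Ddah2 and Gdpd1 completed the set, with log2 differences from -1.35 (Iqca) to -0.92 (Gdpd1). Of these 10 genes, Slc6a3, Iqca, Agxt, Ubxn11 and Gcnt2 lost the call without 5 of the 6 arrays in turn, Rbfox3, Bscl2 and Gnaz without 4, and Ddah2 and Gdpd1 without 4 h replicate 2.

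Genes known as targets of FOXO factors were lower in 4 cases. Of 24 measured, Fbxo32, Ddit4, Txnip and Bcl6 fell (16.7% against 0.91% of all genes) and none rose, while the list median of -0.05 was that of all genes. With arrays shifted to 1 median, 2 were called and the list median was 0.04. Txnip, an inhibitor of thioredoxin and of glucose uptake, read 1263, 1618 and 1443 after withdrawal and 950.2, 842 and 944 at 4 h and was 1.56-fold lower (log2 difference -0.65, SE 0.14, adjusted p = 0.0228). Ddit4, an inhibitor of mTORC1, read 2318, 2571 and 3856 after withdrawal against 1546, 1489 and 1546 at 4 h and was 1.85-fold lower (log2 difference -0.89, SE 0.22, adjusted p = 0.0384). The ubiquitin ligase gene Fbxo32 read 499, 574 and 557 after withdrawal against 409, 190.4 and 289.5 at 4 h and was 1.86-fold lower (log2 difference -0.90, SE 0.21, adjusted p = 0.0333). Its other probe sets differed by -0.60 and 0.03 (adjusted p = 0.188 and 0.981 over probe sets). The second probe sets of Txnip and Bcl6 differed by -0.36 and -0.64 without being called (adjusted p = 0.761 and 0.422). Without each array in turn the count of FOXO targets called lower was between 0 and 3, and it was 0 without withdrawal replicate 2 and without 4 h replicates 2 and 3.

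**Figure D4:**
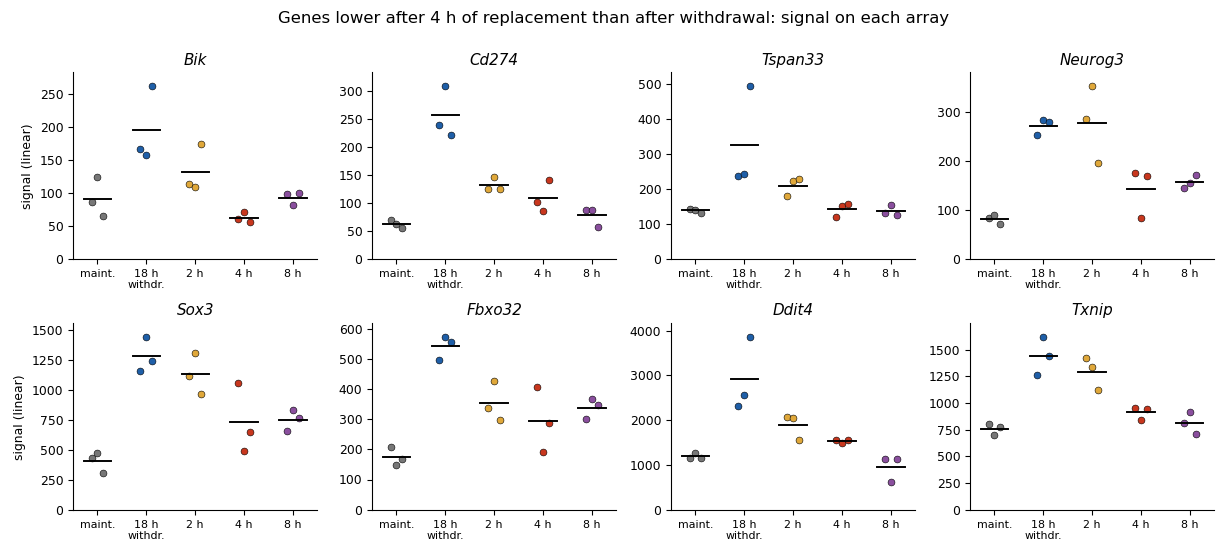
Signal of 8 genes on each array (points) with group means (horizontal lines), linear axes from 0, in the 5 groups. The 3 arrays at 4 h lie below the 3 withdrawal arrays in all 8 panels, and the Neurog3 arrays at 2 h still lie at the withdrawal level, with a mean of 277.8 beside 271.6.

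In lists for growth and the cell cycle the counts of calls were close to what the 2.64% over all genes gives for lists of their size. None of 32 genes of the G1/S transition and DNA replication was called, with a median of 0.05. Among 22 mitotic genes 1 was called, Cdc25c, the phosphatase that activates CDK1, which was 1.69-fold lower (log2 difference -0.76, SE 0.18, adjusted p = 0.0327). None of 38 genes of ribosome biogenesis, polyamine synthesis and MYC targets was called, and their median was -0.21. The glucose transporter Slc2a1 was the only call among 16 genes of glucose uptake and glycolysis (log2 difference -0.68, adjusted p = 0.0445), and Trib3, a pseudokinase induced by ATF4, the only call among 23 genes of amino acid supply and the ATF4 response (log2 difference -0.67, adjusted p = 0.0385). The growth-arrest gene Tob2 was called higher (log2 difference 0.59, adjusted p = 0.0317), but 3 of its 4 other probe sets had the opposite sign. No gene was called among 18 of JAK-STAT feedback, 19 heat shock and chaperone genes and 15 genes of meiotic and haploid germ cells. Leaving out each of the 6 arrays in turn, Trib3 lost the call every time and Cdc25c, Slc2a1 and Tob2 lost it 5 times.

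In the remaining lists the calls were few and of mixed direction. The shares called were 11.5% (lysosome and autophagy), 6.67% (pluripotency), 11.8% (interferon), 4.76% (BMP and TGF-beta) and 13.3% (heparan sulfate), beside 2.64% of all genes. In lists of this size such shares rest on few genes. Among 26 genes of lysosome and autophagy, Rragc (log2 difference 0.63, adjusted p = 0.0294) and the protease Ctsl (log2 difference 0.60, adjusted p = 0.0314) rose and Rragd (log2 difference -0.67, adjusted p = 0.0462) fell. Rragc and Rragd are Rag GTPases, which bring mTORC1 to the lysosome. Tcl1, an activator of AKT, was the only call among 15 pluripotency-linked genes (log2 difference 0.76, adjusted p = 0.0166). The interferon list of 17 had B2m higher and the transcription factor Irf1 lower (log2 difference -0.84, adjusted p = 0.0352). Id4 was the only call among 21 genes of the BMP and TGF-beta response, and Hs6st2 (log2 difference 0.87, adjusted p = 0.0435) was called beside Hs3st3b1 among 15 heparan sulfate enzymes. Leaving out each of the 6 arrays in turn, Rragd and Hs6st2 lost the call 5 times, Rragc, Ctsl and Irf1 4 times, and Tcl1 without withdrawal replicate 2 or 4 h replicate 2.

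Transcripts of fibroblasts moved with the 4 h group. Of 22 measured fibroblast markers 8 rose (36.4% against 1.74% of all genes) and none fell, with a median of 0.81 beside -0.05 for all genes, and 20 of the 22 differences were positive. The called markers were Col3a1, Col5a1, Col5a2, Dcn, Postn, Thbs2, Lox and Twist1. Their count was 14 without withdrawal replicate 3, 9 without 4 h replicate 1, 3 and 2 without withdrawal replicates 1 and 2, and 2 and 1 without 4 h replicates 2 and 3. Col3a1, the type III collagen gene, read 1153, 1295 and 2003 after withdrawal and 3517, 2983 and 3453 at 4 h, and was 2.28-fold higher (log2 difference 1.19, SE 0.25, adjusted p = 0.0212). The decorin gene Dcn read 401, 346 and 467 after withdrawal against 814, 705 and 899 at 4 h and was 1.96-fold higher (log2 difference 0.97, SE 0.22, adjusted p = 0.0327).

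The summed signal of the 22 fibroblast markers was 10913, 10582 and 16780 on the withdrawal arrays and 22303, 19399 and 22793 at 4 h, with no overlap. It was 11575 to 14625 in maintained cultures, 7283 to 12014 at 2 h and 18637 to 23160 at 8 h. Mast cell genes moved in the same sense between withdrawal and 4 h: the list of 14 endothelial, blood and mast cell markers summed to between 2316 and 2836 after withdrawal and between 3901 and 4523 at 4 h. Unlike the fibroblast sum, it was already 3212, 3781 and 2566 at 2 h. In that list 10 differences were positive and 4 negative, and the mast cell proteases Cpa3 (log2 difference 0.96, adjusted p = 0.0161) and Cma1 (log2 difference 0.76, adjusted p = 0.0384) rose (14.3% against 1.74% of all genes). The endothelial marker Pecam1 and the leukocyte marker Ptprc were under the brightness limit by their mean over all arrays and were not tested. Ptprc read 14.6 to 20.4 after withdrawal and 30.3 to 35.2 at 4 h, without overlap. Pecam1 overlapped, at 10.2 to 40.3 and 6.6 to 34.5. Sertoli markers overlapped, at 1081 to 1236 after withdrawal and 1130 to 1225 at 4 h, with 0 of 14 called, and so did the sums for undifferentiated spermatogonia, at 17643 to 18353 and 17417 to 19238. None of 5 Leydig and peritubular markers was called. Of these, Cyp11a1 read 47.4 to 79.1 after withdrawal and 96.8 to 159.2 at 4 h, without overlap. Star (95.0 to 136.4 and 116.7 to 135.0) and Acta2 (211.3 to 279.7 and 233.3 to 321.0) overlapped.

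The mean log2 level of the fibroblast list on each array was therefore also entered as a covariate, a choice made after seeing it. With it, 260 genes were called, of which 96 were among the 346. Of the 91 called genes named by rule, 41 kept their call with the covariate. Some of those that lost it had nearly the same or a larger log2 difference, such as Bcl6b (1.39), Etv5 (1.39), Junb (0.78), Bik (-1.32) and Cd274 (-1.16), whereas Dcn (0.13) and Col3a1 (0.03) were near 0. Bhlhe40, Egr1, Egr2, Lhx1, Plk3 and Spry4 kept theirs with the covariate and under every other setting in which they were tested. By list, 6 of 36 immediate-early genes, 9 of 22 feedback and ETS genes and 6 of 20 cholesterol genes were called with it. So were 2 of 24 FOXO targets and none of the 14 endothelial, blood and mast cell markers, beside 260 of all 13083 genes. In lists of this size such counts rest on few genes. The fibroblast markers themselves make up the covariate, so their loss of calls is fixed by its construction. The part of these other cell types in the differences was not tested beyond this fit, and the covariate itself separates the groups.

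**Figure D5:**
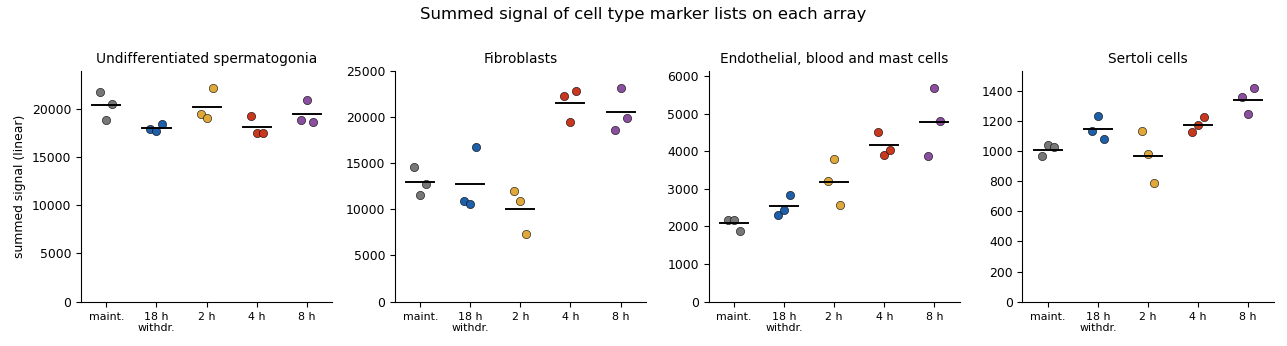
Summed signal of 4 lists of cell type markers on each array (points) with group means (horizontal lines), linear axes from 0. The fibroblast sum is 19399 to 22793 at 4 h against 10582 to 16780 after withdrawal and 7283 to 12014 at 2 h, while the sum for undifferentiated spermatogonia overlaps between withdrawal and 4 h.

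How the 4 h response differed from the earlier one was examined by comparing 4 h directly with 2 h, which shares the 4 h arrays with the comparison above. Of the 13083 genes 254 (1.94%) differed, 221 higher and 33 lower at 4 h. Leaving out 4 h replicates 1, 2 and 3 in turn gave 709, 100 and 46, and leaving out 2 h replicates 2 and 3 gave 111 and 63. Fibroblast markers were prominent, with 13 of 22 called higher and all 22 differences positive. With the fibroblast level as a covariate no gene passed the test in limma. Outside the list some differences stayed or grew in size: Bhlhe40 went from 1.86 to 2.15, Jag1 from 1.01 to 2.02 and Neurog3 from -0.91 to -1.64. Others outside it shrank: Timp3 went from 1.73 to 0.01, Snai2 from 1.76 to -0.09, Hs6st2 from 1.00 to -0.07 and Cdc42ep2 from 1.88 to 1.35. Col3a1, a member of the list, went from 1.74 to 0.13. The covariate ran from -0.84 to -0.326 at 2 h and from 0.364 to 0.619 at 4 h, without overlap. Differences fitted with it thus rest on the fitted slope, and what their shifts stem from was not tested.

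Bhlhe40 had the smallest adjusted p of the named genes in this comparison. Its arrays read 102, 84 and 129 at 2 h, level with withdrawal, and 337, 502 and 435 at 4 h, 3.64-fold higher (log2 difference 1.86, SE 0.17, adjusted p = 3.87e-05). With the fibroblast covariate the log2 difference was 2.15 with an adjusted p of 0.0876. Jag1 read 379.9, 304 and 385 at 2 h and was higher at 4 h (log2 difference 1.01, adjusted p = 0.0437). Fzd1 read 147, 125 and 117 and B2m 2408, 2039 and 1063 at 2 h, again at the level of withdrawal, and rose by 4 h (log2 difference 0.85, adjusted p = 0.00367, and log2 difference 1.25, adjusted p = 0.0112). Of the 36 immediate-early genes, Ier3 (log2 difference 0.67, adjusted p = 0.00869), Fosl2 (log2 difference 1.16, adjusted p = 0.0157) and Klf4 (0.72, adjusted p = 0.0271) were higher than at 2 h, and of the 22 feedback genes Phlda1 (log2 difference 0.57, adjusted p = 0.0479). These counts, 3 of 36 and 1 of 22, stand beside 221 of all 13083 genes called higher and rest on few genes.

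The largest differences from 2 h, apart from Bhlhe40, were in Cdc42ep2, an effector of CDC42 (log2 difference 1.88, adjusted p = 0.00367), and in the transcription factor gene Snai2 (log2 difference 1.76, adjusted p = 0.0436), in Col3a1 (log2 difference 1.74, adjusted p = 0.0021) and in Timp3, an inhibitor of matrix proteases (log2 difference 1.73, adjusted p = 0.00367). Snai2 varied widely within groups, at 69.4, 48.8 and 212 after withdrawal and 60.1, 129 and 209 at 4 h. With the covariate the difference of Col3a1 from 2 h was 0.13 and that of Snai2 was -0.09. Among the decreases from 2 h, Neurog3 read 285, 352 and 196 at 2 h and 176, 82.7 and 169 at 4 h (log2 difference -0.91, adjusted p = 0.047). Acvr2b, an activin receptor, read 698, 581 and 704 at 2 h and 464, 306 and 298 at 4 h (log2 difference -0.89, adjusted p = 0.014). B3gnt5, Zbtb42 and Zfp941 completed the 5 largest decreases, with log2 differences of -1.15, -1.13 and -0.98.

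Between 4 and 8 h of replacement no gene (0%) passed the adjusted threshold in limma, although 1943 had an unadjusted p under 0.05. Alternatives gave 63 without 4 h replicate 1, 278 with array weights and 14 after shifting arrays to 1 median. Bcl6b averaged 281 ± 19.6 at 4 h and 445 ± 74.8 at 8 h, Egr1 3633 ± 86.9 and 2889 ± 291, and Pou3f1 338 ± 56.4 and 188 ± 8.02 (SD, n = 3 each). None of these differences was called.

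The return to the state before withdrawal was assessed by comparing 4 h with maintained cultures. Of 13083 genes 125 (0.955%) differed, 74 higher and 51 lower at 4 h. Leaving out 4 h replicate 3 gave 26, leaving out maintained replicates 1, 2 and 3 gave 75, 65 and 33, and the fibroblast covariate gave 1. Sox2, a pluripotency-linked factor, read 224, 234 and 214 in maintained cultures, 44, 41.4 and 26.6 after withdrawal and 32.3, 60.8 and 44.6 at 4 h. The 4 h arrays overlapped those of withdrawal and were 3.95-fold lower (log2 difference -1.98, SE 0.22, adjusted p = 0.000334). Crmp1, Snap91, Krt19 and Igfbpl1 were likewise lower than in maintained cultures, with log2 differences of -1.71, -1.60, -1.87 and -1.53.

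Other genes stayed above the maintained level. Zmym3, a zinc-finger gene, read 107, 112 and 153 in maintained cultures, 681, 873 and 902 after withdrawal and 447, 366 and 641 at 4 h, and was 3.53-fold higher (log2 difference 1.82, SE 0.24, adjusted p = 0.000919). Rspo1, a secreted enhancer of WNT signalling, read 29.4, 43.6 and 19 in maintained cultures, 198, 221 and 237 after withdrawal and 168, 112 and 132 at 4 h and was 3.32-fold higher (log2 difference 1.73, SE 0.23, adjusted p = 0.00123). Camk2n1, an inhibitor of CaM kinase II, read 145, 164 and 148 in maintained cultures, 811, 791 and 1023 after withdrawal and 647, 441 and 548 at 4 h and was 3.3-fold higher (log2 difference 1.72, SE 0.17, adjusted p = 0.000118). In these 3 genes the 4 h arrays lay between the withdrawal and the maintained arrays. Kif26a and Serpina3n were the other members of the 5 largest increases (log2 difference 2.07, adjusted p = 0.0478, and log2 difference 1.79, adjusted p = 0.0438). Rragd, described above among the decreases from withdrawal, also remained higher than in maintained cultures (log2 difference 1.42, adjusted p = 0.000824). Of the immediate-early genes 1 of 36, and of the feedback genes 0 of 22, were called against maintained cultures, where 0.955% of all genes were called, so these counts say nothing particular about either list.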

How the data were processed

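The authors deposited 1 table of array intensity values (MAS5 signal, per the submitters' processing notes; the version is not given in the sources used here) for 15 arrays in 5 groups of 3, scaled so that the middle 96% of signals averaged 150.0 to 150.3. The number of arrays limits the precision. From 45101 probe sets, 64 controls and the dimmest 40% by mean (under a signal of 30.5) were left out. Platform annotation gave 1 symbol for 34958 probe sets, several for 932 and none for 9211, and symbols were checked against the reference. The probe set with the highest mean log2(signal + 16) stood for its gene, which left 13083 genes. Group means were fitted over all 15 arrays, which share 1 estimate of spread, with limma 3.58.1 (R 4.3.3; lmFit, eBayes with an intensity trend, 10 residual degrees of freedom). Two-sided p-values were Benjamini-Hochberg adjusted over all genes, called under 0.05, and the fit was tested on simulated data. A rank test of 3 against 3 arrays cannot go under 0.1. Genes were named if they were among the 15 largest called, separated changes each way against withdrawal (clone and predicted names skipped), a called list member, among 5 largest called differences each way in another comparison, or a fixed stem cell gene; other list members named are described beside their list. Gene lists and the comparison itself were chosen with earlier results of these data known. Alternatives covered the added constant, the dim filter, normalization, the choice of probe set, model settings, array weights, a replicate block and each array left out. The fibroblast covariate was added after seeing the data.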

Additional observations from a re-analysis of the deposited data

Results flagged for a closer look

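Named genes whose difference from withdrawal was not the same at 4 h as at 2 h, by the direct test of 4 h against 2 h in limma, are given here with their log2 differences (4 h minus 2 h). Both contrasts share the withdrawal arrays, so the difference between them is the difference between 4 h and 2 h. Bhlhe40 was higher by 1.86 and Cdc42ep2 by 1.88. Jag1 was higher by 1.01, Fzd1 by 0.85, B2m by 1.25, Ier3 by 0.67, Phlda1 by 0.57, Ctsl by 0.63 and Hs6st2 by 1.00.

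Among fibroblast markers, Col3a1 was higher by 1.74, Col5a2 by 1.55, Postn by 1.50, Lox by 1.43, Dcn by 1.32 and Col5a1 by 0.84. Outside that list, Timp3 was higher by 1.73 and Snai2 by 1.76. The summed signal of fibroblast markers was 7283 to 12014 at 2 h and 19399 to 22793 at 4 h, and its part in these differences was not tested.

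Lower at 4 h than at 2 h were B3gnt5 (-1.15), Zbtb42 (-1.13), Zfp941 (-0.98), Neurog3 (-0.91) and Acvr2b (-0.89). Of all these 22 genes, none passed the adjusted threshold with the fibroblast level as a covariate, where the smallest adjusted p among them was 0.0876, for Bhlhe40. The log2 differences stayed or grew for some (Bhlhe40 2.15, Jag1 2.02, Ier3 0.65, Zbtb42 -1.65, Neurog3 -1.64 and Acvr2b -1.28 with the covariate) and were near 0 for others (Col3a1 0.13, Timp3 0.01, Snai2 -0.09 and Hs6st2 -0.07). The covariate did not overlap between 2 h (-0.84 to -0.326) and 4 h (0.364 to 0.619), so these values rest on the fitted slope. What the shifts stem from was not tested.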

How the results depend on the processing

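Of 91 named genes called against withdrawal, 8 were called under every alternative other than the fibroblast covariate in which they were tested (Bhlhe40, Egr1, Egr2, Lhx1, Plk3, Spry4, Bcl6b and Bik), and 83 lost the call under at least 1. The number of genes called against withdrawal, 346 as reported, was 182 with no filter on dim probe sets, 13 from these groups alone, 208 without the intensity trend and 1609 with array weights, and 56 to 620 when 1 array was left out. Against 2 h, the 254 genes became 153 with no filter, 1251 with array weights and 0 with the fibroblast covariate, and 46 to 709 with 1 array left out. Between 8 h and 4 h, 0 genes became 14 after shifting arrays to 1 median and 278 with array weights, and 0 to 63 with 1 array left out. Against maintained cultures, 125 became 74 from these groups alone, 529 with array weights and 1 with the covariate, and 26 to 120 with 1 array left out. The cause of these shifts was not tested, except that fewer genes or arrays enter some fits by construction.

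Same-numbered withdrawal and 4 h arrays correlated at 0.074, -0.047 and 0.103 in their deviations from the group means, so the numbers were not taken as pairs. A replicate block gave 372 genes against withdrawal, 236 against 2 h, 0 between 8 h and 4 h and 120 against maintained cultures.

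Signs of the difference from withdrawal turned in 9 genes, of which only Timp3 and Tob2 had been called. Leaving out 1 array gave -0.0399 to 0.87 for Snai2, -0.66 to 0.73 for Kif26a and -0.097 to 0.47 for Egr3. With the fibroblast covariate Snai2 became -1.01, Kif26a -1.24, Timp3 -0.085, Serpina3n -0.63, Igfbpl1 0.085, Tspan8 0.013 and Ret 0.096. Kif26a was -0.0695 with a constant of 64. Averaging a gene's probe sets gave -0.051 for Tob2, 0.15 for Tspan8 and 0.14 for Ret.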
